A study of Mus musculus with 9 samples.

Results

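The 10 genes described here are the homeobox genes Otx1, Otx2, Gbx2, Dlx5, Dlx6, Hmx2, Hmx3, Lmx1a and Msx1 and the T-box gene Tbx1. They were listed by name for their known part in patterning the otocyst and the non-sensory walls of the duct that grows out of it, and all 10 were matched by Ensembl identifier among the 54232 genes counted. RNA was measured at E14.5 in the cochlear ducts of 9 mouse embryos, of which 3 were WT (Prdm16 +/+), 3 were heterozygote (Prdm16 cGT/+) and 3 were null (Prdm16 cGT/cGT). The cGT allele is a gene trap in the germline, so that it was present in every tissue and not in the cochlear duct alone. All embryos, WT controls included, came from matings of heterozygotes on the FVB/NJ inbred background, with 3 littermates per genotype. Each library held the microdissected cochlear ducts of both inner ears of a single embryo, and its values are raw counts of reads per gene, 24095322 to 30819118 in all.

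The otocyst is the epithelial vesicle from which the whole inner ear forms, and transcription factors expressed in parts of it set up its axes. Dlx5, Dlx6, Hmx2, Hmx3 and Gbx2 are known from its dorsal side, from which the vestibular organs and the endolymphatic duct arise. Otx1, Otx2 and Tbx1 are known from the ventral and lateral side and later from the non-sensory roof of the cochlear duct, which becomes Reissner's membrane and the stria vascularis. Lmx1a marks non-sensory epithelium and the future outer sulcus, where it separates sensory from non-sensory fates, and Msx1 is a homeobox repressor that responds to BMP signals in many epithelia. Prdm16, the gene disrupted here, encodes a zinc-finger regulator of transcription that marks Kölliker's organ (KO), the epithelium beside the prosensory domain.

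Prdm16 RNA followed the labelled genotypes, at 225, 197 and 184 CPM (counts scaled to library size with TMM factors) in WT, 151, 123 and 141 CPM in heterozygote and 23.7, 19.1 and 27.4 CPM in null libraries. Among markers of the cells a dissected duct can hold, the summed level of 5 roof markers (Fgf9, Oc90, Lrp2, Gsc and Kctd8) was 7860 to 9210 CPM in WT, 9409 to 9947 CPM in heterozygote and 10584 to 13911 CPM in null libraries, with all 5 detected everywhere. The sum of 4 KO markers was 3033 to 3793 CPM in WT and 1568 to 1849 CPM in null libraries. The 9 mesenchyme markers summed to 579, 1052 and 109 CPM in WT 1, 2 and 3, to 50.4, 96.9 and 70.5 CPM in heterozygotes and to 60.5, 35.2 and 1384 CPM in null 1, 2 and 3, so that WT 1, WT 2 and null 3 stood apart. The 5 melanocyte markers summed to 55.2 to 132 CPM in WT, 20.6 to 40.4 CPM in heterozygote and 12.2 to 43.0 CPM in null libraries. The 6 erythroid markers summed to 86.1 to 239 CPM in WT, 36.7 to 57.7 CPM in heterozygote and 58.4 to 122 CPM in null libraries. The 6 endothelial markers summed to 54.8 to 90.6 CPM in WT 1, WT 2 and null 3 and to 3.39 to 8.05 CPM in the others. The part of the melanocyte, erythroid and endothelial markers in the results was not tested. In bulk RNA, fewer cells of a type and less RNA per cell cannot be told apart, and the libraries carry no position within the duct.

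Levels of the 10 genes differed widely in WT. Compared per kilobase of exon, Lmx1a was highest at 70.7 ± 11.5 CPM per kb (SD, n = 3). Otx2 followed at 42.2 ± 5.16 and Tbx1 at 41.6 ± 4.03 CPM per kb, and the ranges of these 2 genes overlapped. Hmx3 stood at 18.1 ± 2.86, Otx1 at 9.47 ± 0.781, Msx1 at 4.51 ± 0.358, Hmx2 at 2.47 ± 0.468 and Dlx5 at 0.782 ± 0.115 CPM per kb. Dlx6 was measured at 0.0874 ± 0.101 CPM per kb, and Gbx2 was near the floor, with 1 read over the 3 WT libraries. The order of the means was the same in all 3 genotypes. Apart from Otx2 and Tbx1, neighbours in the order overlapped in the heterozygotes for Dlx6 and Gbx2, and in the null libraries for Hmx2 and Dlx5. The genes known from the ventral duct and its roof (Otx2, Tbx1) and Lmx1a thus supplied 79.5% to 83.6% of the RNA of the group in every library, summed per kilobase, while the dorsal otocyst genes were spread from the fourth place (Hmx3) to the last (Gbx2). The summed level of the 10 genes was 175, 177 and 218 CPM per kb in WT, 218, 223 and 207 in heterozygote and 247, 278 and 244 in null libraries, so that null and WT did not overlap.

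**Figure D1:**
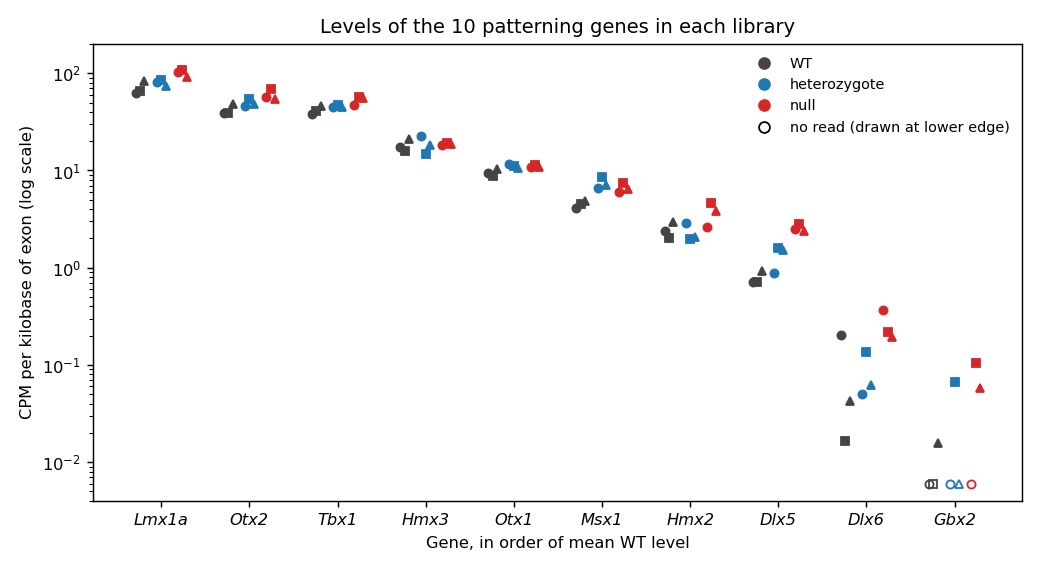
Level of each of the 10 genes in each of the 9 libraries, in CPM per kilobase of exon on a log axis, with circles, squares and triangles for replicates 1, 2 and 3 and open symbols at the lower edge for libraries with no read. Lmx1a, Otx2 and Tbx1 lie highest in every genotype, and Gbx2 has no read in 2 WT, 2 heterozygote and 1 null library.

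Upstream sequence is shown for genes whose levels are described next and that were called in a comparison of genotypes. RefSeq (GRCm38.p6, the assembly behind mm10) gave starts for 7 of the 10 genes, all but Otx1, Dlx5 and Dlx6, and the 250 bases before each start were searched for the homeobox core TAATTA, which reads the same on both strands, for TAATCC, the core bound by Otx-type homeodomains (GGATTA on the other strand), and for the T-box half-site AGGTGTGA, likewise on either strand. Of the 32817 such windows of all genes, 4.85% held TAATTA, 6.25% TAATCC and 1.12% AGGTGTGA. Among the 7 genes only Otx2 had a match. The window of the most upstream of its RefSeq starts, which lies inside the annotated span of the gene, held 1 TAATTA, 141 bases before the start. The window at chr14:48665110-48665359, which lies within an annotated exon of Otx2, held 3 TAATTA, at 234, 174 and 154 bases before the start, and 1 TAATCC at 211. Lmx1a and Msx1 held none, nor did Dlx2, shown beside them as a relative of Dlx5 that was called. A match is a description of letters and not of a bound site. The windows of these 4 genes, at chr14:48667645-48667894 (minus), chr1:167689308-167689557 (plus), chr5:37824586-37824835 (minus) and chr2:71546755-71547004 (minus), are printed 5′ to 3′ with the match in capitals, and they differ in GC content, at 42%, 59.2%, 68% and 66.4% against a median of 52.4% over all windows.
Otx2: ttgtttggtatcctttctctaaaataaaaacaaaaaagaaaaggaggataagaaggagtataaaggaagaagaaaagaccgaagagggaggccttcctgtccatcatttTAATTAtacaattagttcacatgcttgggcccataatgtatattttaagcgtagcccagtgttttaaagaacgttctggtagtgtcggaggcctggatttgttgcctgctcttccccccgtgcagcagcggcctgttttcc
Lmx1a: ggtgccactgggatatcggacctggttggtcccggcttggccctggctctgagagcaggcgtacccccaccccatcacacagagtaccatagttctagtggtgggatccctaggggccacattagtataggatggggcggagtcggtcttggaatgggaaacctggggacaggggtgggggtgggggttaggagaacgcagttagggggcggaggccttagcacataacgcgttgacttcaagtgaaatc
Msx1: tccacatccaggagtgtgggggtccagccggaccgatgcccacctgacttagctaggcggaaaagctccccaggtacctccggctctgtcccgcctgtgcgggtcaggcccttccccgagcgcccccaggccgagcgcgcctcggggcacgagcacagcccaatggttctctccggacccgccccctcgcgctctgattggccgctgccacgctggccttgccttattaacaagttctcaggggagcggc
Dlx2: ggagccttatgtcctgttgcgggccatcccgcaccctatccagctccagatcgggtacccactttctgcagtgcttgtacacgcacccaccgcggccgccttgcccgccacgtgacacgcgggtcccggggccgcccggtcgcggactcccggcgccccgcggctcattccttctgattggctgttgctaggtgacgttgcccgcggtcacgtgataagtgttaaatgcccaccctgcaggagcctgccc

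The question put to the genotypes was whether loss of Prdm16, from Kölliker's organ and wherever else it is expressed, came with a change in these genes. A gene was called when its edgeR adjusted p was under 0.05 and its log2 fold change over 0.5 in size. In null against WT, 9 of the 10 genes passed the filter on low counts (Gbx2 did not), and 1 of them, Dlx5, was called higher. Over all 17168 genes tested, 1.71% were called, 0.92% higher and 0.786% lower. All 9 fold changes were above 0, beside 51.9% of all genes, and Dlx6 passed the filter only through its null libraries. The median log2 fold change was 0.50 against 0.01 over all genes tested. An unadjusted p under 0.05 was found for 7 of the 9, beside 12.2% of all genes. Log2 CPM of the null libraries lay wholly above WT for 6 of the 9 genes (Otx1, Otx2, Dlx5, Lmx1a, Tbx1 and Msx1), where 9.89% of 17797 genes lay wholly above and 8.96% wholly below.

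In heterozygote against WT, 8 of the genes were tested and 1, Msx1, was called higher, beside 0.151% of all 17269 genes called and 0.0521% called higher. Of the 8 log2 fold changes 7 were above 0, with a median of 0.20. The ranges of heterozygote and WT were separate for Otx1 and Msx1, both higher, beside 8.92% of all genes higher and 8.95% lower. In null against heterozygote 0 of 9 genes were called by edgeR, beside 0.615% of all 17067 genes, 0.293% higher and 0.322% lower. In that comparison 6 of the genes (Dlx5, Lmx1a, Dlx6, Hmx2, Otx2 and Tbx1) had an unadjusted p under 0.05, beside 11.4% of all genes, and DESeq2 called 1, Dlx5. Dlx6 passed the filter in this comparison too only through its null libraries. The ranges of Dlx5, Dlx6, Lmx1a and Tbx1 lay wholly higher in null libraries, beside 8.89% of all genes higher and 9.04% lower. A slope of log2 level per gene trap allele, fitted to all 9 libraries, was called upward for Dlx5, Otx2 and Lmx1a, beside 2.37% of 17797 genes called and 1.43% upward. These comparisons share their libraries and are not independent of each other, and a gene that missed the threshold was not shown to be equal between genotypes.

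**Figure D2:**
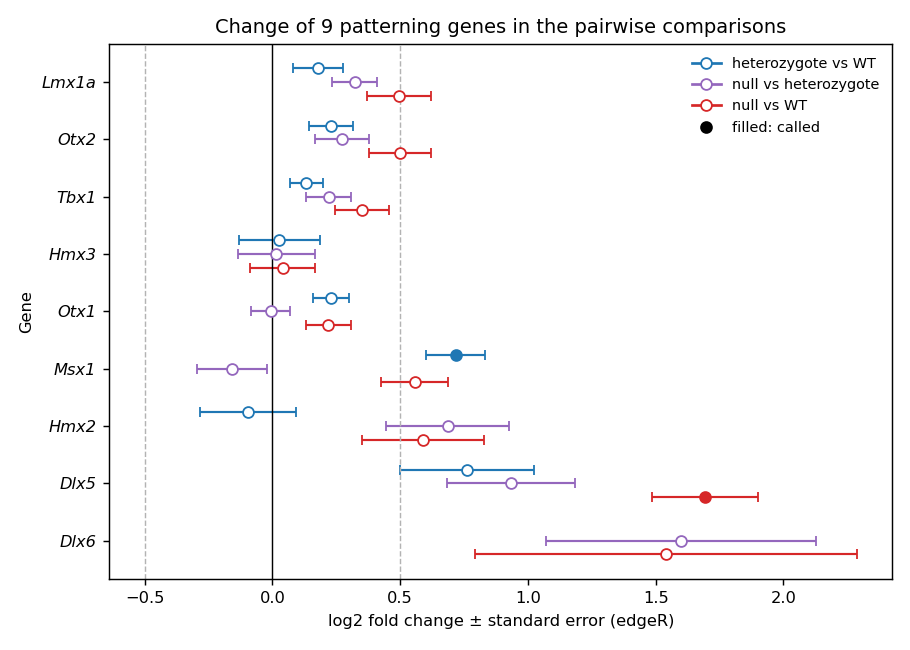
Log2 fold change of the 9 tested genes (edgeR, bars are standard errors) in heterozygote against WT, null against heterozygote and null against WT, with filled points for called genes and dashed lines at a log2 fold change of 0.5 either way. Dlx5 in null against WT and Msx1 in heterozygote against WT are the filled points.

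Dlx5, a Distal-less homeobox gene needed for the vestibular organs, had the largest change of the group that passed the test. The gene occupies chr6:6877805-6882085 of mm10 (minus strand). Dlx5 stood at 1.63, 1.61 and 2.07 CPM in WT (44, 41 and 61 reads), 2.01, 3.61 and 3.40 CPM in heterozygote (50, 100 and 93 reads) and 5.61, 6.30 and 5.36 CPM in null libraries (136, 195 and 128 reads). Null libraries did not overlap with either of the other genotypes, while heterozygote 1 lay within the WT range. Dlx5 rose 3.25-fold in the mean CPM of null libraries over WT, with a log2 fold change of 1.69 (SE 0.207, edgeR adjusted p = 0.00768). The heterozygote difference from WT was 0.76 (SE 0.261, adjusted p = 0.237) and that of null from heterozygote 0.94 (SE 0.25, adjusted p = 0.206). Its slope was 0.85 per allele (SE 0.116, adjusted p = 0.00304), called in all 9 fits that left out a library. Without WT 1 the adjusted p of null against WT was 0.0583 and without WT 2 it was 0.068, with log2 fold changes of 1.64 in both, and the 4 other omissions kept the call. Without WT 2 and null 3, the libraries richest in mesenchyme markers of their genotypes, it was 1.69 (adjusted p = 0.0603), and with the roof markers as a covariate it was 1.57 (adjusted p = 0.0184).

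Dlx6, its neighbour and close relative, lies at chr6:6863334-6868568 on the plus strand, 9236 bases from Dlx5. It had 13, 1 and 3 reads in WT, 3, 9 and 4 reads in heterozygote and 21, 16 and 11 reads in null libraries. WT 1 alone held 13 of the 17 WT reads, and at 0.482 CPM it fell inside the null range of 0.461 to 0.867 CPM. The log2 fold change of null against WT was 1.54 (SE 0.748, edgeR adjusted p = 0.467), and over the libraries left out in turn it ran from 1.08 to 3.01. The log2 ratio of Dlx5 to Dlx6 was 3.03 ± 1.24 in WT and 3.12 ± 0.459 in null libraries (SD, n = 3; exact two-sided permutation p = 1, where 0.1 is the smallest that 3 against 3 can give). The prior count of 2 in log2 CPM weighs on this ratio, since Dlx6 had 1 and 3 reads in WT 2 and WT 3. The long RNA Dlx6os1 (ENSMUSG00000090063, chr6:6820189-6871592, minus strand) spans Dlx6 from the opposite strand and shares 0 exon bases with it. Its counts were 12, 7 and 9 in WT, 30, 20 and 20 in heterozygote and 41, 48 and 22 in null libraries. It rose in null against WT by a log2 fold change of 2.01 (SE 0.386, edgeR adjusted p = 0.0499), a call kept in 1 of the 6 fits that left out a library, and like Dlx6 it passed the filter on low counts there only through its null libraries. The other antisense gene at the locus, Dlx6os2, shares 104 exon bases with Dlx6 and had 0 reads in all 9 libraries.

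Both genes of another linked Dlx pair rose in null against WT. Dlx1 and Dlx2, on chromosome 2 and also transcribed from opposite strands 9426 bases apart, were on the list of 17 relatives of the 10 genes. Dlx1 was 10.2, 9.18 and 11.7 CPM in WT, 16.7, 19.6 and 15.1 CPM in heterozygote and 25.9, 25.1 and 25.3 CPM in null libraries, so that no genotypes overlapped. It rose by a log2 fold change of 1.29 (SE 0.125, edgeR adjusted p = 0.00343), called in all 6 fits that left out a library. Dlx2 was 17.6, 21.5 and 24.8 CPM in WT, 28.8, 32.1 and 24.5 CPM in heterozygote and 43.4, 46.1 and 39.8 CPM in null libraries. It rose by 1.01 on the log2 scale (SE 0.142, edgeR adjusted p = 0.0151), a call kept in 3 of 6 such fits. Dlx1as, antisense to Dlx1, shares 335 exon bases with it, and without the strand setting their reads cannot be told apart there. All 6 Dlx genes tested in null against WT had positive fold changes, beside 51.9% of all genes. Of these 3 were called, beside 0.92% of all genes called higher, and Dlx6 was among the 6 only through its null libraries. Dlx3 and Dlx4, a further linked pair, were not called, at 0.13 (adjusted p = 0.868) and 0.74 (adjusted p = 0.465).

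**Figure D3:**
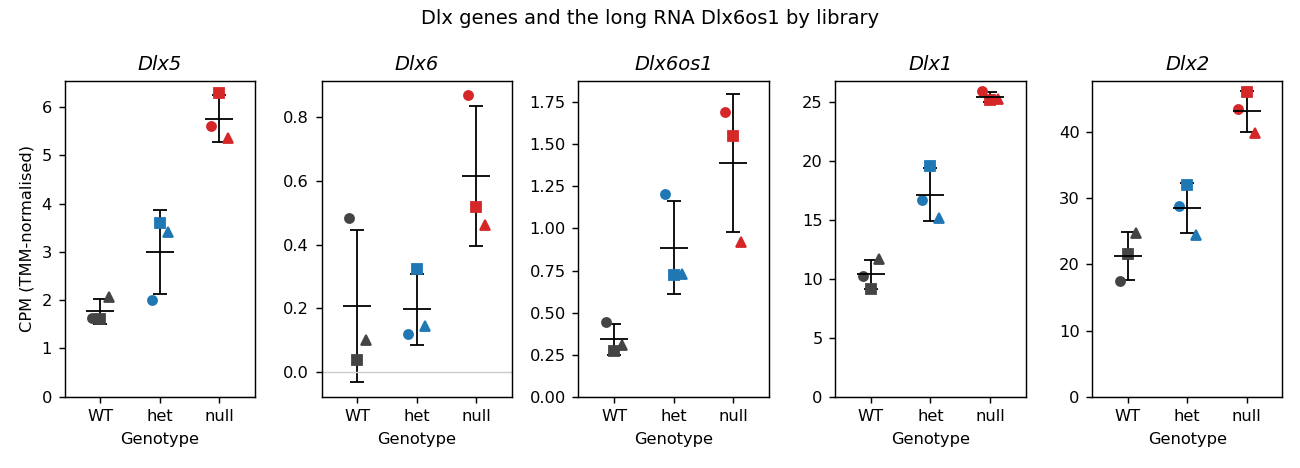
CPM of Dlx5, Dlx6, Dlx6os1, Dlx1 and Dlx2 in each library, with circles, squares and triangles for replicates 1, 2 and 3, and the mean ± SD of the 3 libraries of a genotype. Null libraries lie above all WT libraries for each gene but Dlx6, where WT 1 at 0.482 CPM lies above null 3 at 0.461 CPM.

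Otx2 and Lmx1a differed less between genotypes, at far higher levels. Otx2 (chr14:48657677-48673819, minus strand), a head and roof homeobox gene of the orthodenticle family, was 165, 166 and 203 CPM in WT, 195, 229 and 203 CPM in heterozygote and 240, 289 and 228 CPM in null libraries. Every null library was above every WT library, and heterozygotes overlapped with both. The ratio of means was 1.42, and the log2 fold change of 0.50 (0.4988 before rounding, SE 0.122, edgeR adjusted p = 0.116) was not called. With DESeq2 the log2 fold change of Otx2 was 0.4979 (adjusted p = 0.0048), short of a call only by the fold threshold. Its slope per allele was 0.25 (SE 0.0541, adjusted p = 0.0311), just past the threshold of 0.25. Leaving out WT 1, WT 2, heterozygote 3, null 1 or null 2 lost that call, with adjusted p of 0.125, 0.116, 0.0523, 0.0692 and 0.075. The antisense Otx2os1 shares 154 exon bases with Otx2, 3.65% of its exons, and its log2 fold change was 0.48 (adjusted p = 0.439). Gm49154, on the same strand as Otx2, shares 168 exon bases with it (3.98%).

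Lmx1a (chr1:167689237-167848741, plus strand), the LIM homeobox gene mutated in dreher mice, was 214, 222 and 285 CPM in WT, 278, 286 and 252 CPM in heterozygote and 346, 364 and 310 CPM in null libraries. The null range lay above both others, and WT 3 fell among the heterozygotes. The ratio of null to WT means was 1.42, with a log2 fold change of 0.50 (0.4968 before rounding, SE 0.125, edgeR adjusted p = 0.126). With DESeq2 it was 0.496 (adjusted p = 0.00568), again short of a call only by the fold threshold. The slope per allele was 0.251 (SE 0.0543, adjusted p = 0.0321), barely past the threshold of 0.25, and it was 0.2494 with DESeq2 or RLE normalisation, short of a call. Leaving out WT 1, WT 2, heterozygote 1, heterozygote 2, null 1 or null 2 lost that call, with adjusted p of 0.124, 0.116, 0.0544, 0.0529, 0.103 and 0.0884. Without the mesenchyme-rich library of each genotype the slopes of Otx2 and Lmx1a were 0.26 and 0.25 with adjusted p of 0.0806 and 0.112.

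Tbx1 and Otx1 had smaller differences. Tbx1 (chr16:18580979-18590671, minus strand), the T-box gene behind much of DiGeorge syndrome, was 134, 143 and 162 CPM in WT, 159, 164 and 158 CPM in heterozygote and 165, 199 and 197 CPM in null libraries. All null libraries were above all others, with a ratio of 1.28 to WT, a log2 fold change of 0.35 (SE 0.105, edgeR adjusted p = 0.209) and a slope of 0.18 (adjusted p = 0.0542). Otx1 (chr11:21994764-22002897, minus strand), needed for the lateral semicircular canal, was 51.4, 47.1 and 55.5 CPM in WT, 63.4, 59.9 and 57.4 CPM in heterozygote and 59.0, 62.1 and 58.7 CPM in null libraries. Here WT lay below both other genotypes, which overlapped. Its log2 fold change was 0.22 in null (SE 0.0871, adjusted p = 0.363) and 0.23 in heterozygote libraries (SE 0.0708, adjusted p = 0.191). The log2 ratio of Otx2 to Otx1 within a library was 1.79 ± 0.0975 in WT, 1.79 ± 0.161 in heterozygote and 2.07 ± 0.137 in null libraries (SD, n = 3). All 3 null ratios were above the WT ratios (difference 0.28, exact two-sided permutation p = 0.1, the smallest possible; 0.15 adjusted over 3 gene pairs).

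The summed level of the roof markers was also higher in null libraries. It was 1.40 times the WT mean in null libraries, carried by Oc90, an otoconial matrix gene at 7820 ± 610 CPM in WT and 11344 ± 1785 CPM in null libraries (SD, n = 3). By edgeR 0 of the 5 roof markers were called in null against WT (3 at an unadjusted p under 0.05), and their log2 fold changes ran from -0.44 (Lrp2) to 0.53 (Oc90). Over all genes tested in that comparison, 0.92% were called higher, 0.786% were called lower and 12.2% had an unadjusted p under 0.05. The outer sulcus markers Bmp4, Fst, Lmo3 and Gata2 summed to 1.34 times the WT mean, with 0 of 4 called (1 at an unadjusted p under 0.05). The 5 prosensory markers summed to 552 to 591 CPM in WT, 679 to 716 CPM in heterozygote and 654 to 860 CPM in null libraries, 1.33 times the WT mean in null, and 2 of 5 rose in null against WT, Lfng and Fgf20, with all 5 at an unadjusted p under 0.05. The part of these cell types in the results was not tested beyond the roof marker covariate. Taken relative to the mean log2 CPM of the roof markers in the same library, Otx2 was -0.34 to -0.28 in WT and -0.01 to 0.11 in null libraries, and Lmx1a was 0.03 to 0.21 in WT and 0.44 to 0.52 in null libraries. On this scale the null minus WT difference was 0.38 for each of Otx2 and Lmx1a, 1.54 for Dlx5, 0.43 for Msx1, 0.23 for Tbx1, 0.10 for Otx1 and -0.07 for Hmx3. These differences depend on the roof summary used, since the sum was 1.40 times WT and Otx2 and Lmx1a were each 1.42 times WT. The mean log2 CPM weighs the 5 markers equally, and Lrp2 and Kctd8 had negative fold changes (-0.44 and -0.17). With that mean as a covariate in the edgeR fit, the log2 fold changes were 0.36 for Otx2 (adjusted p = 0.116) and 0.37 for Lmx1a (adjusted p = 0.14), and neither slope was called, at 0.20 (adjusted p = 0.0702) and 0.19 (adjusted p = 0.0456) per allele. The 18 roof genes named by the study's single-cell clusters were all tested in null against WT, with a median of 0.13. Of these 1 rose and 0 fell, beside 0.92% of all genes called higher and 0.786% lower. An unadjusted p under 0.05 was found for 7 of the 18, beside 12.2% of all genes. The gene that rose was Fibin (log2 fold change 0.79, SE 0.113, edgeR adjusted p = 0.0165), a call kept in 3 of the 6 fits that left out a library. The slope of Ecel1, on the same list, was called downward at -0.2513 per allele (SE 0.0568, edgeR adjusted p = 0.0394), while those of Fibin, Lurap1l and Meis2 were called upward.

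**Figure D4:**
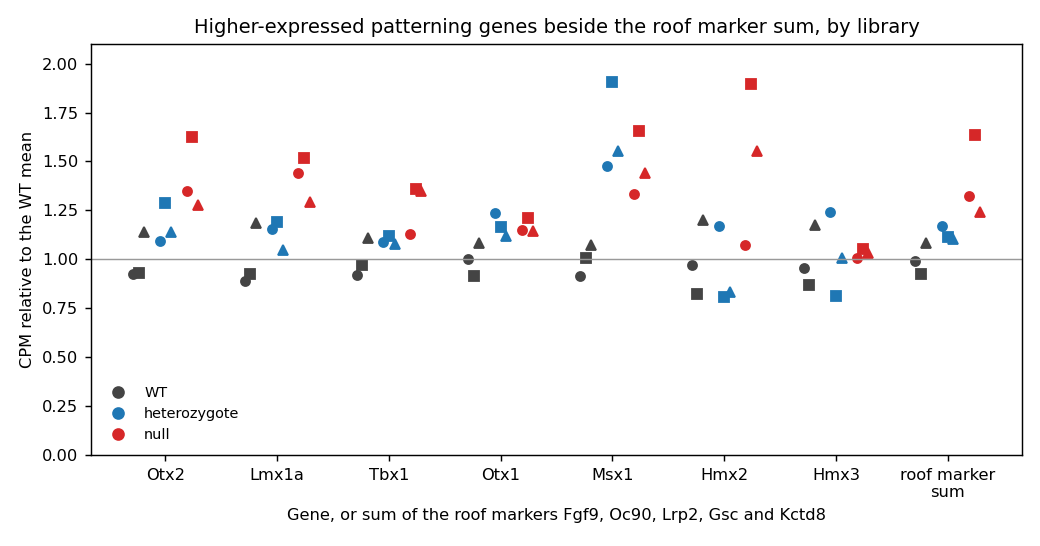
CPM of 7 of the genes in each library divided by the WT mean, beside the same ratio for the sum of 5 roof markers, with circles, squares and triangles for replicates 1, 2 and 3. Null libraries lie above WT for Otx2, Lmx1a, Tbx1, Otx1, Msx1 and the roof marker sum, and overlap WT for Hmx2 and Hmx3.

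Msx1 was the gene called in heterozygotes. It occupies chr5:37820485-37824583 (minus strand). Msx1 stood at 12.8, 14.1 and 15.0 CPM in WT, 20.6, 26.6 and 21.7 CPM in heterozygote and 18.6, 23.1 and 20.1 CPM in null libraries. WT was lowest with no overlap, and heterozygote and null libraries overlapped. Msx1 rose by 0.72 on the log2 scale in heterozygote against WT (SE 0.116, edgeR adjusted p = 0.0498). The null difference from WT was 0.56 (SE 0.131, adjusted p = 0.101), null against heterozygote was -0.16 (SE 0.138, adjusted p = 0.667), and the slope was 0.28 per allele (adjusted p = 0.224). The heterozygote call was lost in 5 of 6 omissions, with adjusted p of 0.0956 without WT 1, 0.183 without WT 2, 0.0735 without heterozygote 1, 0.203 without heterozygote 2 and 0.216 without heterozygote 3. Over all genes, those 5 fits called 47, 3, 10, 0 and 0 genes in the same order, against 26 with every library and 505 without WT 3. Heterozygote libraries held 50.4 to 96.9 CPM of mesenchyme markers against 109 to 1052 CPM in WT, and with those markers as a covariate the log2 fold change was 0.70 (edgeR adjusted p = 0.389). Its relative Msx2 had a log2 fold change of -0.43 in null against WT (SE 0.379, adjusted p = 0.711).

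Hmx2 and Hmx3, paired homeobox genes of the vestibular otocyst, lie 3847 bases apart on the plus strand of chromosome 7. Hmx3 (chr7:131542867-131544925) was 25.3, 22.9 and 31.01 CPM in WT, 32.9, 21.5 and 26.6 CPM in heterozygote and 26.6, 27.8 and 27.3 CPM in null libraries. All genotypes overlapped, with a log2 fold change of 0.04 in null against WT (SE 0.128, edgeR adjusted p = 0.927), and its sign turned with several settings. Hmx2 (chr7:131548773-131558014) was 7.71, 6.55 and 9.53 CPM in WT, 9.28, 6.42 and 6.62 CPM in heterozygote and 8.50, 15.0 and 12.3 CPM in null libraries. Null 2 and null 3 lay above the rest and null 1 within them, with a log2 fold change of 0.59 (SE 0.239, adjusted p = 0.377). The log2 ratio of Hmx3 to Hmx2 was 1.71, 1.79 and 1.69 in WT, 1.82, 1.73 and 1.99 in heterozygote and 1.64, 0.88 and 1.14 in null libraries. The null ratios were all below the others (difference from WT -0.51, exact two-sided permutation p = 0.1, the smallest possible; 0.15 adjusted over 3 pairs). Fgfr2 spans both genes from the opposite strand with 0 shared exon bases.

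Gbx2 (chr1:89927956-89931179, minus strand), a homeobox gene of the dorsal otocyst and endolymphatic duct, was barely detected. It had 0, 0 and 1 read in WT, 0, 4 and 0 reads in heterozygote and 0, 7 and 3 reads in null libraries. The pooled ratio of null to WT was 10.4 with a 95% exact counting interval from 1.47 to 450, which covers counting error only, and null 1 held no read. Of its exon bases 43.5% are shared with D130058E05Rik on the opposite strand, which itself had 3 reads in WT 2, 1 read in null 2 and 3 reads in null 3. Its relative Gbx1 had 3, 3 and 1 reads in WT, 9, 2 and 3 in heterozygote and 25, 28 and 15 in null libraries. Gbx1 rose by 3.24 on the log2 scale (SE 0.529, edgeR adjusted p = 0.0261), a call kept in 1 of the 6 fits that left out a library, and it passed the filter on low counts only through its null libraries.

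Among the 17 relatives 10 were tested in null against WT, 3 rose (Dlx1, Dlx2 and Gbx1) and 0 fell, beside 0.92% of all genes called higher and 0.786% lower, with a median log2 fold change of 0.36 and 4 at an unadjusted p under 0.05, beside 12.2% of all genes. Of these Gbx1 was tested only because its null libraries were high, so that it could be counted only as a rise. In comparison, 0 of 19 tested genes of a list of 22 other otocyst patterning factors, from Pax2 and Eya1 to Sox9 and Gata3, were called by edgeR (6 at an unadjusted p under 0.05, beside 12.2% of all genes tested), and their median was -0.03. Tbx3, on that list and also a relative of Tbx1, had a log2 fold change of 0.43 (SE 0.0968, edgeR adjusted p = 0.0828). The slope per allele of Sall1, on the same list, was called upward at 0.26 (SE 0.0578, adjusted p = 0.0394). The difference between the lists was not tested.

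For each tested gene the genes closest in pattern were those with the highest Pearson correlation of log2 CPM over the 9 libraries, given without a test, since genotype and library effects are shared by all genes. Tox2, Zdhhc2 and Pgm5 came first for Dlx5 (r = 0.99, 0.99 and 0.98), Lad1, Ogdhl and Sod2 for Otx2 (0.98, 0.97 and 0.97), and Spock2, Kcnh8 and Meox1 for Lmx1a (0.99, 0.97 and 0.97). Map2k1, Rab3b and Gmppb came first for Tbx1 (0.98, 0.97 and 0.95) and Mmp23 and B3galt4 for Otx1 (both 0.95). For Msx1 they were Gm19569, Bahd1 and Gm10463 (0.97, 0.95 and 0.92), for Hmx2 Gm13003, Yipf3 and Aga (0.98, 0.98 and 0.96), for Hmx3 Efcab9, Tapbpl and Cog1 (all 0.90), and for Dlx6 Gbp9, Rbm12 and Lonp2 (0.95, 0.91 and 0.91). None of these genes was another of the 10. Correlations between pairs of the 9 tested genes ran from -0.10 (Dlx6 and Hmx3) to 0.95 (Otx2 and Lmx1a). Within genotypes they ran from -0.48 (Dlx6 and Tbx1) to 0.84 (Otx2 and Msx1). Counts over the 9 genes are therefore not counts of independent genes.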

How the data were processed

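RNA of microdissected cochlear ducts was sequenced from 9 embryos. The authors prepared TruSeq mRNA libraries, read 50 bases from one end on an Illumina HiSeq, and worked with STAR (alignment to mm10), Cufflinks (annotation) and DESeq2 (tests between genotypes). The submitters' processing notes also name cutadapt 1.13 and HTSeq 0.6.1p1. The deposited values are raw counts per Ensembl gene, not normalised. The strand setting and annotation release are not given in the sources used here.

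Symbols and exon positions came from GENCODE M21, which holds 54165 of the 54232 identifiers. Promoters came from RefSeq (GRCm38.p6, 7 of the 10 genes matched). Each pair of genotypes was tested with edgeR 4.0.16 in R 4.3.3 on its own 6 libraries, using TMM factors, filterByExpr (minimum count 10) and the quasi-likelihood test, with Benjamini-Hochberg adjustment over all genes tested. A slope per gene trap allele was fitted to all 9 libraries. Genes were called at an adjusted p under 0.05 and a log2 fold change over 0.5, or a slope over 0.25. CPM used TMM sizes over all 9 libraries, and log2 CPM used a prior count of 2. Library totals of 24095322 to 30819118 set a floor of 3 counts at 0.0969 to 0.126 CPM, which covers counting error only.

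The genes, lists, tests and alternatives were chosen with earlier results of these data known. The roof gene list and several markers were taken from the study's single-cell clusters. Genes named were the 10 genes, Prdm16, genes whose exons overlap theirs, called genes of each list (at most 5 by adjusted p, otherwise the 2 with the lowest p) and the 3 genes closest in pattern to each. Of the genes named by this rule, 2 are not reported here. Dlx3 and Dlx4 complete the Dlx family, and the roof markers are given where the text turns on them. Alternatives were DESeq2 1.42.0, limma-voom (limma 3.58.1), other normalisations and filters, one fit of all libraries, the replicate number as a block, a mesenchyme covariate, no fold threshold and leaving out each library. 2 further alternatives, a roof marker covariate and leaving out the library richest in mesenchyme markers of each genotype, were chosen after seeing the data. On simulated counts with 200 genes changed by 1.5 on the log2 scale, 198 were recovered with 3 false calls for null against WT (17233 genes), 195 with 9 for heterozygote against WT (17370 genes), 198 with 11 for null against heterozygote (17265 genes) and 198 with 4 for the slope (17644 genes). The simulation changed only genes above a set mean count and held no libraries rich in mesenchyme. Its spread between libraries was fixed for all genes and smaller than that estimated for null against WT. Recovery of differences smaller than 1.5, as most of those of the 10 genes were, was not measured.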

Additional observations from a re-analysis of the deposited data

How the results depend on the processing

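Against the 1 gene called in null against WT (Dlx5), DESeq2 called 2 (Dlx5 and Msx1, beside 3.55% of all genes), the test with no filter on low counts called 2 (Otx2 and Dlx5, beside 1.49%), and all 9 libraries in one fit called 4 (Otx2, Dlx5, Lmx1a and Msx1, beside 2.63%). The count was 0 with the replicate number as a block, beside 0.775% of all genes. It was also 0 when the library richest in mesenchyme markers of each genotype was left out, beside 0.672%. Leaving out each library in turn gave 0 to 1, beside 0.382% to 2.51% of all genes. For heterozygote against WT (1 gene, Msx1), limma-voom, RLE normalisation, all 9 libraries in one fit, the mesenchyme covariate and leaving out the mesenchyme-rich libraries each gave 0, beside 0.0637%, 0.133%, 0%, 0.0579% and 0% of all genes called under them, and leaving out each library gave 0 to 1, beside 0% to 2.86%. For null against heterozygote (0 genes), DESeq2 called 1 (Dlx5, beside 2.12% of all genes). For the slope per allele (3 genes), DESeq2, RLE normalisation and no filter on low counts each gave 2, with Lmx1a at 0.2494, 0.2494 and 0.2491. The shares of all genes called under these were 3.82%, 2.37% and 1.49%. Library size alone gave 1 (beside 2.36% of all genes). A mean count over 100 gave 0 (beside 3%), since Dlx5 then was not tested and the slopes of Otx2 and Lmx1a fell just short of 0.25. The block gave 1 (beside 1.83%), the mesenchyme covariate 1 (3.71%), the roof marker covariate 1 (1.78%) and leaving out the mesenchyme-rich libraries 1 (2.14%). Leaving out each library gave 1 to 3, beside 1.3% to 4.57% of all genes. The causes were not tested.

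Replicate numbers were not treated as pairs, since the sources do not say whether libraries of one number came from one litter. The correlation of deviations between libraries of the same number ran from -0.28 to 0.20. Libraries of different numbers were not correlated for comparison, so these values cannot settle whether the numbers pair the libraries. With the block Dlx5 was 1.70 in null against WT (edgeR adjusted p = 0.053), and the slopes of Otx2 and Lmx1a were 0.2497 (adjusted p = 0.0498) and 0.2518 (adjusted p = 0.0788), neither of them called.

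Signs changed only for differences that were not called. Hmx3 in null against WT became -0.0208 with the mesenchyme covariate, -0.0474 without the mesenchyme-rich libraries, -0.039 with the roof marker covariate and -0.0447 to 0.177 over the libraries left out. Its heterozygote value became -0.393 with the mesenchyme covariate, -0.0736 with the roof marker covariate and -0.138 to 0.167 over the libraries left out. In null against heterozygote Hmx3 became -8e-04 with library size alone, -0.13 without the mesenchyme-rich libraries, -0.0342 with the roof marker covariate and -0.124 to 0.181 over the libraries left out. Its slope became -0.0108, -0.0252, -0.0356 and -0.0184 to 0.083 with the mesenchyme covariate, without the mesenchyme-rich libraries, with the roof marker covariate and over the libraries left out. In heterozygotes against WT, the mesenchyme covariate turned Lmx1a to -0.0796 and Tbx1 to -0.0119, and Hmx2 ran from -0.284 to 0.0576 over the libraries left out. In null against heterozygote, Otx1 became 0.0025 with the mesenchyme covariate, 0.0011 without the mesenchyme-rich libraries and -0.0385 to 0.0311 over the libraries left out. Depth limits Dlx6 and Gbx2 most among the 10 genes, with at most 21 and 7 reads in a library.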

Other observations

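The signals tied to these genes in the ear included 2 that fell. Of 18 listed signals and signal modifiers, 16 were tested in null against WT by edgeR, and 8 had an unadjusted p under 0.05 (beside 12.2% of all genes). Of the 16, 0 were called higher and 2 lower, beside 0.92% and 0.786% of all genes. Cyp26c1, which degrades retinoic acid, fell by 1.10 on the log2 scale (SE 0.137, edgeR adjusted p = 0.00847), a call kept in 5 of the 6 fits that left out a library. Fgf10, a growth factor of Kölliker's organ, fell by 0.58 (SE 0.0936, edgeR adjusted p = 0.0254), a call kept in 2 of 6 such fits. Fgf10 is also one of the KO markers, all 4 of which fell in null against WT. Bmp2 was 6.26, 4.63 and 5.12 CPM in WT, 9.40, 6.89 and 6.03 CPM in heterozygote and 11.1, 11.9 and 28.96 CPM in null libraries, so that null lay above both others and null 3 far above the rest. Its log2 fold change of 1.69 in null against WT (SE 0.374, edgeR adjusted p = 0.0812) was not called, and its slope of 0.85 per allele (SE 0.173, adjusted p = 0.0227) was. The median over the 16 genes was 0.17.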
